A study of Bos taurus with 9 samples.

Results

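The mitochondrially encoded subunits of complex I are the products of ND1, ND2, ND3, ND4, ND4L, ND5 and ND6, and these 7 genes, found by their symbols, are described here out of 28786 genes in the read count data. The livers of 9 lactating Holstein cows were biopsied and each gave 1 library, so that every group held 3 cows. Thermoneutral cows (TN) were kept without heat load or matched feeding, heat-stressed cows (HS) were kept under a raised temperature-humidity index, and pair-fed cows (PF) were kept at thermoneutrality with their feed held to the intake of the HS cows. HS against TN therefore holds heat and lower intake together, PF against TN holds the lower intake, and HS against PF holds the heat at equal intake. The cows of all groups went through the same acclimation at thermoneutrality. Their average days in milk were lowest in TN, higher in HS and highest in PF, so the stage of lactation differed along with the groups.

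Complex I (NADH:ubiquinone oxidoreductase) takes electrons from NADH, passes them to ubiquinone and pumps protons across the inner mitochondrial membrane. Its peripheral arm, which holds the flavin and the iron-sulfur clusters, is built from nuclear subunits, while the core of its membrane arm is built from the ND proteins. The ND genes are transcribed from the mitochondrial genome as long RNAs that carry many genes and are cut into single messengers, with ND4L and ND4 left together on one messenger. ND6 is the only protein gene read from the other strand, opposite the end of ND5. In liver, a tissue rich in mitochondria, NADH oxidation by complex I feeds the ATP supply for gluconeogenesis and urea synthesis.

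All 7 members matched a mitochondrial gene of the same symbol in RefSeq (ARS-UCD2.0), where ND4L overlaps ND4, and ND5 overlaps ND6 on the opposite strand. Neither the strand setting of the read counting nor its treatment of reads that fit several genes was given in the sources used here. Reads in these overlaps therefore cannot be assigned to a single gene with certainty. Reads of RNA from the opposite strand may also have been counted for a member. Nuclear copies of mitochondrial sequence could also share reads with the members. The members were deeply covered: the lowest count was 1920, for ND4L in HS cow 3, and the highest was 261257, for ND1 in TN cow 1, so that counting error was at most 2.28% of a value. All 7 passed the filter on low counts in every comparison.

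The library totals ranged from 16874444 to 22557047 counts. The hepatocyte markers (8 of 8 in the file) were strongly expressed in all cows, and the muscle markers MYH1, MYH7 and ACTA1 were at 0. TN cow 1 stood apart: its 8 hepatocyte markers summed to 14527 CPM (counts scaled to library size with TMM factors), against 61904 and 49277 CPM in the other TN cows, 66586 to 99882 in PF and 47085 to 101556 in HS. ALB carried most of this sum (8781 CPM, against 46691 and 36105 in the other TN cows), and 5 of the 8 markers (ALB, TTR, SERPINA1, CYP2E1 and CPS1) were lower in TN cow 1 than in every other cow. APOA1, in contrast, was at 843 CPM in TN cow 1 and at 276 and 513 CPM in the other TN cows, and APOB and TAT were within or near the range of the other cows. The 3 erythroid markers (all in the file) summed to 3.40 to 22.4 CPM in TN, 0 to 2.29 in PF and 0.336 to 1.18 in HS, and thus were higher in each TN cow than in any other cow. This sum was carried by HBB, at 7.84, 3.21 and 22.4 CPM in TN, 0, 2.12 and 2.04 in PF and 1.07, 0.526 and 0.336 in HS, whereas HBA was at 0 in all 3 TN cows and ALAS2 at 0 in TN cow 3.

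Some other marker lists differed between HS and another group. The neutrophil markers (2 of 3 in the file, S100A8 and S100A9) summed to 14.7 to 31.7 CPM in HS, 3.79 to 22.9 in PF and 3.58 to 10.7 in TN, so that HS was above TN in every cow. S100A9 had a log2 fold change of 1.51 in HS against TN (SE 0.34, edgeR FDR 0.270). S100A8 was at 1.94 (SE 0.87, edgeR FDR 0.522), but HS and TN overlapped, with 3.06 CPM in HS cow 1 and 3.34 in TN cow 3. The Kupffer cell and macrophage markers (6 of 6 in the file) summed to 1329 to 2098 CPM in HS, 883 to 1214 in PF and 897 to 2008 in TN, with HS above PF in every cow. HS and TN overlapped in this sum. MARCO, a scavenger receptor, had the largest difference of the 6 in HS against TN. It was at 138 to 328 CPM in HS and 50.5 to 90.3 in TN (log2 fold change 1.45, SE 0.40, edgeR FDR 0.381). The others lay between -0.05 (CSF1R) and 0.45 (CD163), with an edgeR FDR of 0.587 to 0.961. The T cell markers (4 of 4 in the file) summed to 28.9 to 34.0 CPM in HS, 30.4 to 45.7 in PF and 36.6 to 58.2 in TN, so that HS was below TN in this sum. Singly, CD8A was apart between HS and TN, while CD3D, CD3E and CD2 overlapped. Their edgeR FDR in HS against TN ran from 0.541 (CD8A) to 0.679 (CD2). The part of these cell type markers in the results was not tested, and values without TN cow 1 are given beside the comparisons with TN. In such bulk tissue, fewer cells of a type and less RNA per cell cannot be told apart, and the same holds for fewer mitochondrial genomes and fewer transcripts per genome.

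As a share of all counts, the 7 ND genes made up 4.49%, 2.88% and 3.19% of the libraries of TN cows 1, 2 and 3. The share was 1.78%, 1.66% and 2.08% in the PF cows and 1.39%, 1.47% and 0.863% in the HS cows. The 3 groups did not overlap, with TN highest, PF between and HS lowest. In the cow with the lowest share the 95% confidence interval (Wilson) was 0.859% to 0.868%, which covers counting error only. Group means were 3.52% ± 0.851 (SD, n = 3) in TN, 1.84% ± 0.217 in PF and 1.24% ± 0.331 in HS.

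ND1 is the membrane subunit at the joint of both arms, beside the ubiquinone site. It reached 11706, 10122 and 12880 CPM in TN cows 1 to 3, then 5095, 6044 and 6738 CPM in the PF cows and 3757, 5371 and 2620 CPM in the HS cows. Every TN cow was above every PF and HS cow, while PF and HS shared part of their range through HS cow 2.

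ND2, ND4 and ND5 are the large subunits that resemble antiporters and line the proton path of the membrane arm. ND2 was at 4320.5, 3518 and 4619 CPM in TN, at 2277, 2298 and 2132 in PF, and at 1817, 2865 and 1377 in HS. The PF cows had a coefficient of variation of 4.03%, and the HS cows spread around them on both sides. ND4 was at 8194, 7636 and 8804 CPM in TN, 5040, 4509 and 5758 in PF and 3424, 4403 and 3243 in HS. For ND4 the 3 groups were fully apart, although HS cow 2 came close to PF cow 2. ND5, at the far end of the arm, was at 2015, 1281 and 2060 CPM in TN, 1125, 800 and 856 in PF and 682, 682 and 381 in HS. Its groups were apart as well, with TN cow 2 nearest to the PF cows.

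ND3, ND4L and ND6 are small subunits between ND1 and the antiporter-like subunits. ND3 was at 5460, 5990 and 3692 CPM in TN, 3715, 3229 and 4292 in PF and 1220, 2013 and 1894 in HS. Here the HS cows were far below both other groups, while TN and PF overlapped because TN cow 3, the highest TN cow for ND1, ND2, ND4, ND5 and ND6, was the lowest for ND3. ND4L was at 442, 326 and 367 CPM in TN, 263, 203 and 170 in PF, and 168, 178 and 129 in HS, so that PF cow 3 fell inside the HS range. ND6, the gene of the other strand, was at 1783, 1240 and 1999 CPM in TN, 1271, 839 and 775 in PF, and 495, 505 and 283 in HS. ND6 in HS was below all other cows, and PF cow 1 was just above TN cow 2.

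**Figure D1:**
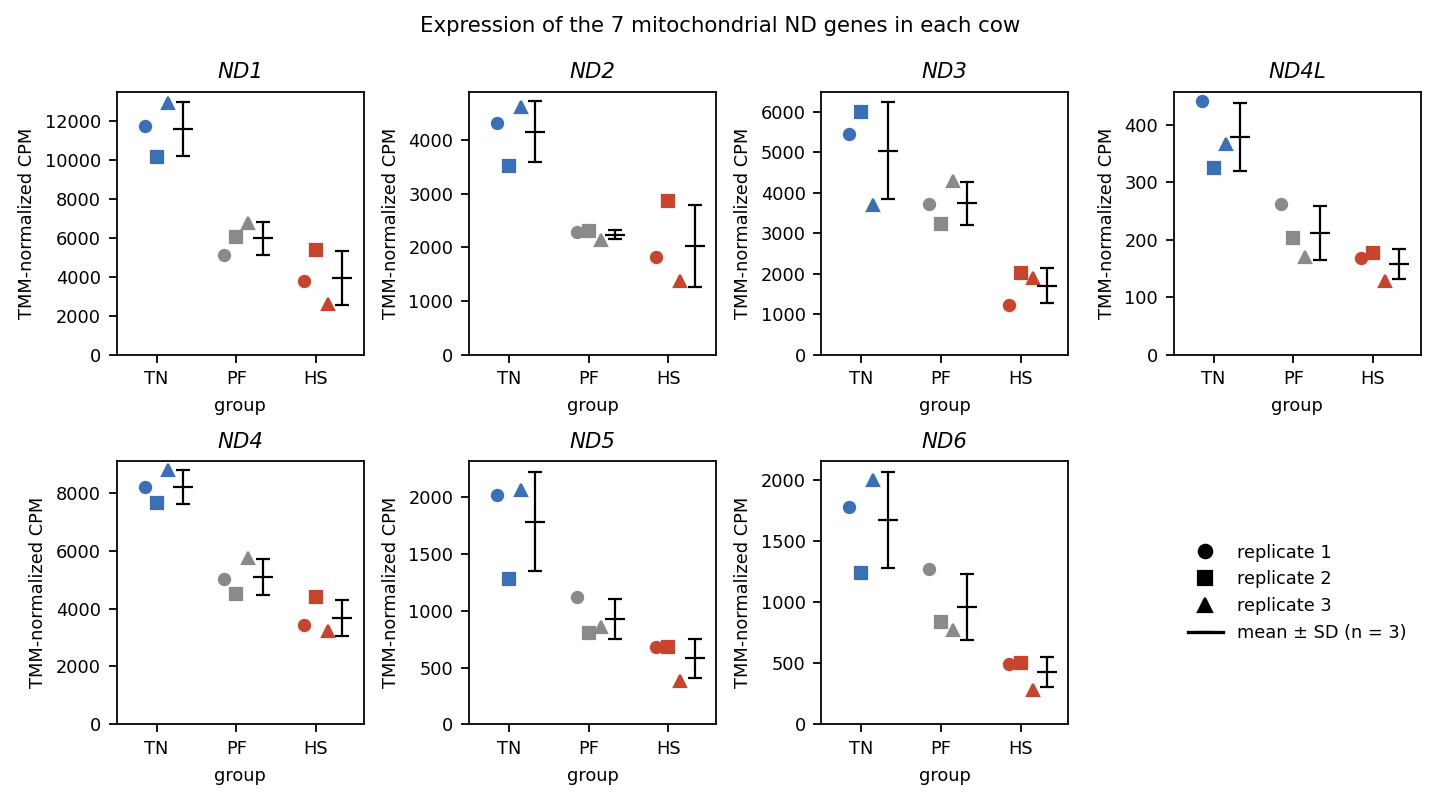
TMM-normalized CPM (vertical axes, linear from 0) of each ND gene in the 3 groups (horizontal axes); points are cows, with the shape giving the replicate number, and bars are mean ± SD (n = 3). The TN cows lie above all HS cows in each of the 7 panels, and the PF cows lie mostly between them.

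The mean of each of the 7 genes was therefore highest in TN and lowest in HS. PF and TN overlapped for ND3 and ND6, and PF and HS overlapped for ND1, ND2 and ND4L. For ND4 and ND5 no neighbouring groups overlapped.

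In HS against TN, all 7 ND genes were lower with no overlap between the cows, where 50.7% of the 14582 genes tested were lower and 7.74% were lower without overlap. The fitted difference ranged from 2.08-fold lower for ND2 to 3.96-fold lower for ND6, and the median log2 fold change of the members was -1.58, beside -0.01 over all genes. The unadjusted p of edgeR's quasi-likelihood test was under 0.05 for 7 of 7 members, against 5.23% of genes tested that were lower at that level. After Benjamini-Hochberg adjustment over all genes, however, edgeR called 0 of 7 (FDR under 0.1 and fold change over 1.5), with 0.0549% of genes called lower. DESeq2, the tool of the study, called 7 of 7 lower under the same thresholds, with 0.889% of genes called lower. The members were thus lower in every HS cow, whereas the call depended on the tool.

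By gene, ND6 had the lowest log2 fold change, -1.99 (SE 0.42, edgeR FDR 0.249, DESeq2 FDR 2.16e-07). ND5 followed with -1.64 (SE 0.42, edgeR FDR 0.332), then ND1 with -1.58 (SE 0.53, edgeR FDR 0.456) and ND3 with -1.58 (SE 0.47, edgeR FDR 0.396). ND4L was at -1.27 with the smallest SE of the members, 0.30 (edgeR FDR 0.280). ND4 at -1.17 (SE 0.47, edgeR FDR 0.501) and ND2 at -1.06 (SE 0.47, edgeR FDR 0.522) differed least. Among all genes tested, between 0.521% and 4.17% had a lower log2 fold change than the respective member. ND2 had the weakest DESeq2 call of the members (DESeq2 FDR 0.0592), and it held in 2 of the 6 fits that left out a cow, whereas each of the other 6 genes was called in 6 of 6 such fits.

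Without TN cow 1 the members' median log2 fold change in HS against TN was -1.50, edgeR called 0 of 7 and DESeq2 called 6 of 7, with ND2 not called (DESeq2 FDR 0.171). Over all genes, DESeq2 fits with 1 cow left out called up to 534 in this comparison, higher or lower. The difference of the members was thus of like size without TN cow 1. When library sizes were computed without the mitochondrial genes, the median was -1.58 again, and 7 of 7 members were lower without overlap. The share of all genes lower without overlap was 7.74% with the main scaling and was not computed for this one.

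In PF against TN, which holds the lower feed intake without heat, the 7 members were also all lower, as were 51.2% of the genes tested, by 1.35-fold for ND3 to 1.94-fold for ND1. The median log2 fold change was -0.84, beside -0.01 over all genes. The cows did not overlap for 5 of 7 members (ND1, ND2, ND4, ND4L and ND5), where 6.36% of the 14580 genes tested were lower without overlap. The unadjusted p of edgeR was under 0.05 for 4 of 7, against 3.89% of genes that were lower at that level. edgeR called 0 of 7, with 0.00% of genes called lower, and DESeq2 called 2 of 7, with 0.347% of genes called lower. These 2 were ND1 (log2 fold change -0.96, SE 0.39, DESeq2 FDR 0.0520) and ND2 (-0.90, SE 0.36, DESeq2 FDR 0.0749).

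The other members of PF against TN had a DESeq2 FDR of 0.157 for ND5 (log2 fold change -0.95, SE 0.37), 0.248 for ND4L (-0.84, SE 0.32) and 0.328 for ND4 (-0.69, SE 0.37). ND6 stood at -0.80 (SE 0.38, DESeq2 FDR 0.381) and ND3 at -0.43 (SE 0.38, DESeq2 FDR 0.758). Leaving out 1 cow at a time, DESeq2 called between 0 and 5 members: without TN cow 2 it called 5, and without TN cow 1 it called only ND1 with the median at -0.75. Over all genes, such fits called up to 341, higher or lower. The ND1 call held in 3 of 6 fits that left out a cow and the ND2 call in 1 of 6. ND4L, ND5 and ND6 were each called in 1 of 6, and ND3 and ND4 in 0 of 6. The calls thus changed with single cows.

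In HS against PF, where intake was matched, the 7 members were again lower, as were 49.1% of the genes tested, by 1.11-fold for ND2 to 2.25-fold for ND6. ND6 had a log2 fold change of -1.17 (SE 0.34, edgeR FDR 0.589, DESeq2 FDR 0.0191), and ND3 had a log2 fold change of -1.13 (SE 0.32, edgeR FDR 0.576, DESeq2 FDR 0.00870). These were the only members called by DESeq2, 2 of 7, with 0.310% of genes called lower, and edgeR called 0 of 7, with 0.0207% of genes called lower. The unadjusted p of edgeR was under 0.05 for the same 2 genes, against 2.25% of genes that were lower at that level. The ND3 call held in 6 of 6 fits that left out a cow and the ND6 call in 4 of 6. The cows did not overlap for 4 of 7 (ND3, ND4, ND5 and ND6), where 4.62% of the 14510 genes tested were lower without overlap.

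The other 5 members of HS against PF were not called by either tool. ND5 had a log2 fold change of -0.67 (SE 0.32), ND1 of -0.61 (SE 0.35), ND4 of -0.47 (SE 0.31) and ND4L of -0.42 (SE 0.27). ND2 was at -0.15 (SE 0.34), and without HS cow 3 its sign turned to 0.07. The median of the 7 was -0.61, beside 0.01 over all genes, and it was -0.38 without HS cow 3. The comparisons share cows, HS and PF being set against the same TN cows, so their values are not independent of each other.

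**Figure D2:**
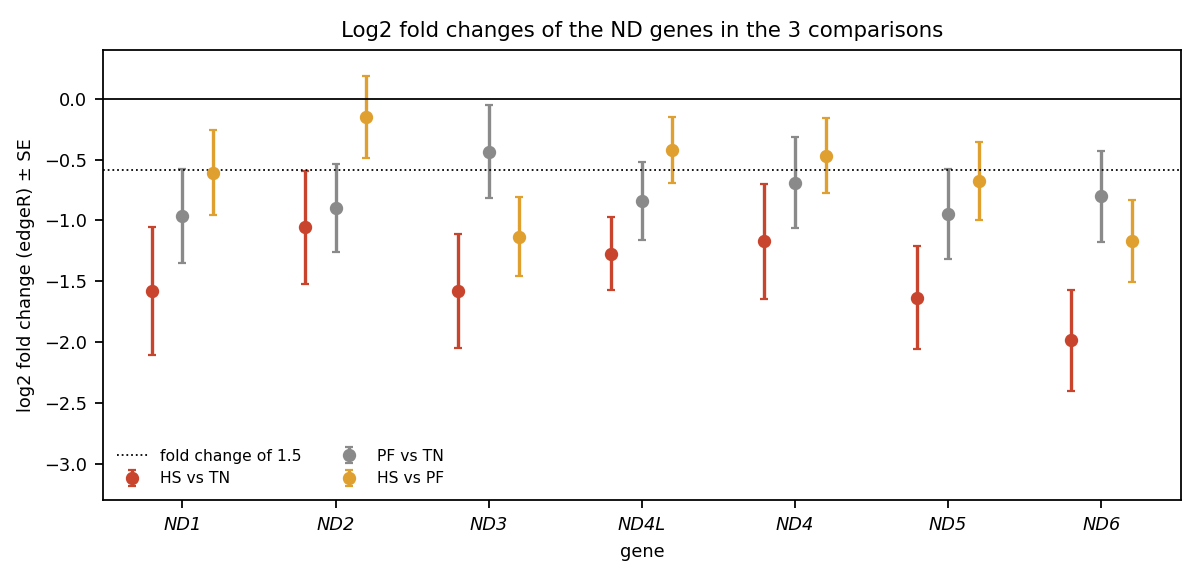
Log2 fold changes (vertical axis) of the 7 ND genes (horizontal axis) in HS vs TN, PF vs TN and HS vs PF; points are edgeR estimates, bars are ± SE, the solid line is no difference and the dotted line a fold change of 1.5. All points lie below 0, from -1.99 for ND6 in HS vs TN to -0.15 for ND2 in HS vs PF.

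Ratios of 2 members in the same library do not depend on library size or on the scaling between cows, and 3 pairs of neighbours on the mitochondrial genome were compared. The 3 ratios were tested over the 3 groups with exact permutation tests over the 280 ways to form 3 groups of 3 cows, and p was adjusted over the 3 ratios. Pairs of groups, with 3 cows against 3, cannot reach an exact p below 0.1.

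The ratio of ND6 to ND5 counts, which sets the gene of one strand against its neighbour on the other, was 0.885, 0.968 and 0.970 in TN and 1.13, 1.05 and 0.906 in PF. In HS it was 0.725, 0.742 and 0.742, below all 6 other cows and nearly equal between the cows. The groups differed by the exact permutation test (p = 0.0107, adjusted p = 0.0321). HS was 21.7% lower than TN (log2 difference -0.35, SE 0.05) and 28.1% lower than PF (log2 difference -0.48, SE 0.09), both with the smallest exact p of 0.1. PF and TN overlapped (log2 difference 0.12, SE 0.10, exact p = 0.3). With each cow left out in turn the exact p over the groups ran from 0.00357 to 0.0214. Since ND5 and ND6 overlap, the share of reads counted for each in the overlap is not known. With the strand setting unknown, the ND6 counts may also hold reads of the opposite strand along the whole gene. RNA was enriched on poly-T beads, so both counts also depend on how well each RNA was captured, which was not measured. The ratio therefore cannot be read with certainty as a ratio between the strands.

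The ratio of ND2 to ND1 was 0.369, 0.348 and 0.359 in TN, 0.447, 0.380 and 0.317 in PF, and 0.484, 0.534 and 0.526 in HS. Each HS cow was above the 6 others, while PF spread over both sides of TN. The exact permutation test gave p = 0.0250 and an adjusted p of 0.0375, and HS was 43.4% higher than TN (log2 difference 0.52, SE 0.05). HS against PF gave a log2 difference of 0.45 (SE 0.15), and PF against TN one of 0.08 (SE 0.15, exact p = 0.7). Leaving out any one of the HS cows raised the exact p to 0.0607, above 0.05.

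ND4L and ND4, which share a messenger, kept a ratio that did not separate the groups. It was 0.0539, 0.0426 and 0.0417 in TN, 0.0522, 0.0450 and 0.0295 in PF and 0.0492, 0.0404 and 0.0398 in HS. The exact permutation test gave p = 0.861, before and after adjustment. The log2 difference of HS to TN was -0.09 (SE 0.15), and it turned to 0.03 without TN cow 1.

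**Figure D3:**
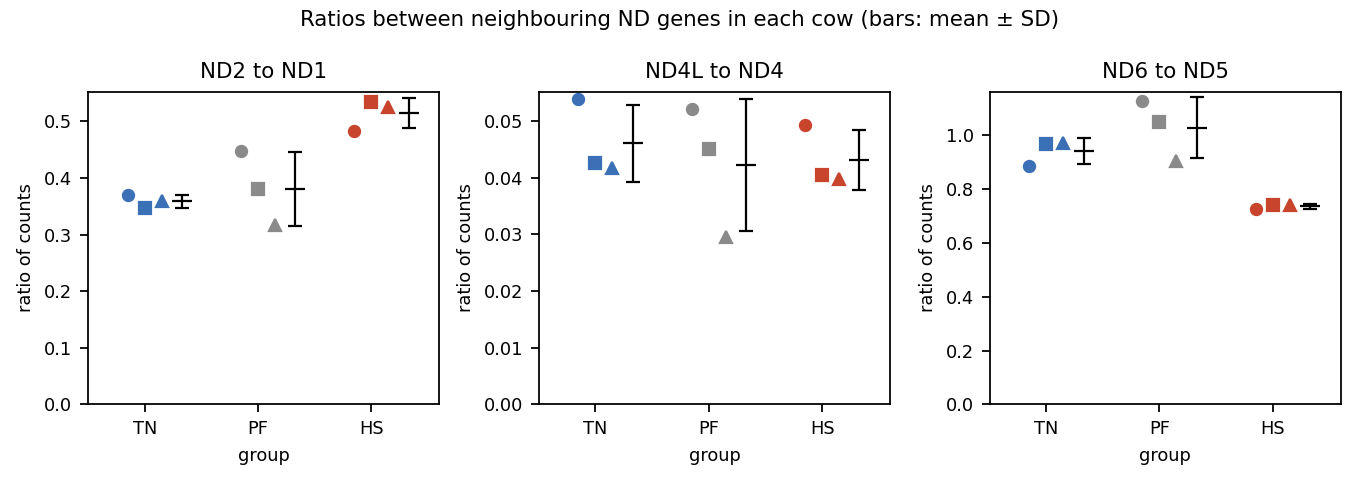
Ratio of counts (vertical axes, from 0) of ND2 to ND1, ND4L to ND4 and ND6 to ND5 in each cow, by group (horizontal axes); point shapes are the replicates 1 (circle), 2 (square) and 3 (triangle), and bars are mean ± SD (n = 3). HS lies above the other cows for ND2 to ND1 (0.484 to 0.534) and below them for ND6 to ND5 (0.725 to 0.742), and the groups overlap for ND4L to ND4.

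The same counts can be read as the makeup of the ND transcripts. The share of ND6 was 5.06% ± 0.862 for TN, 5.06% ± 1.55 for PF and 3.43% ± 0.750 for HS (SD, n = 3), with overlap between HS and both other groups. ND4 gave 24.2% to 25.6% in TN, 25.2% to 27.8% in PF and 27.5% to 32.7% in HS, so that HS was above TN in every cow. ND2 gave 11.7% to 13.4% in TN, 10.3% to 12.8% in PF and 13.9% to 17.9% in HS, which was above all other cows. ND1, the largest part with ND4, gave 35.2% ± 1.99 in TN, 31.1% ± 3.51 in PF and 30.8% ± 3.86 in HS. ND3 ran from 10.6% in HS cow 1 to 20.7% in PF cow 3, and ND4L made up 0.819% to 1.46% in all cows.

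**Figure D4:**
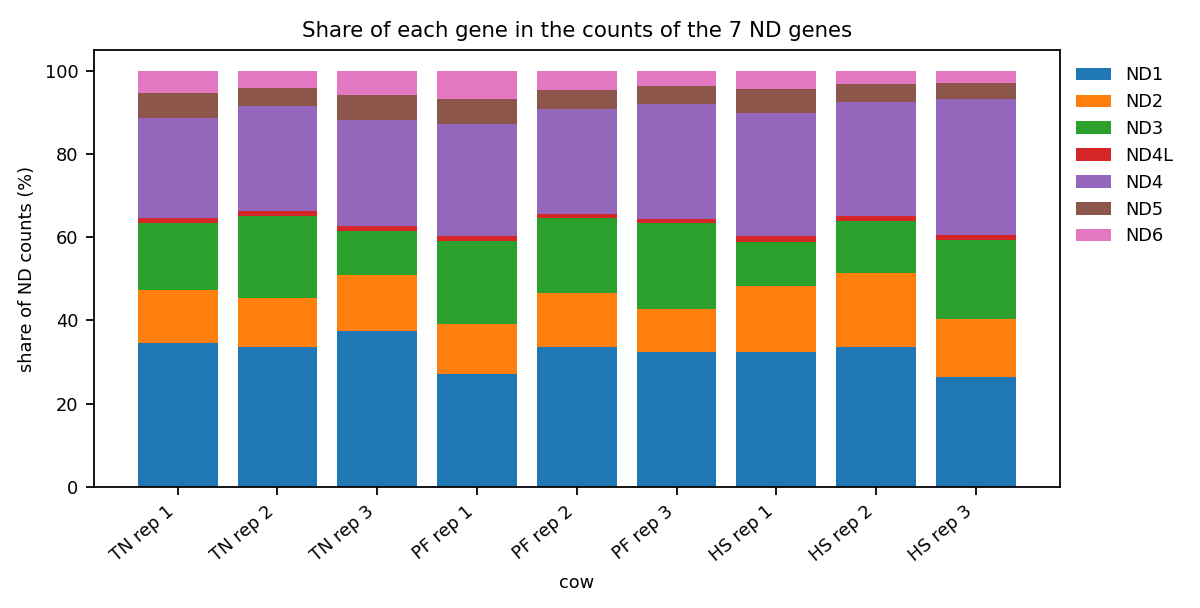
Share of each ND gene (vertical axis, % of the counts of the 7 genes) in each of the 9 cows (horizontal axis); stacked bars sum to 100. ND2 is widest in the 3 HS cows (13.9% to 17.9%) and ND4L is the thinnest band throughout.

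The 6 other protein genes of the mitochondrial genome were lower in HS and in PF as well. COX1, a core subunit of cytochrome c oxidase, had a log2 fold change of -2.36 (SE 0.71) in HS against TN and -1.54 (SE 0.45) in PF against TN. COX2 (-1.63), CYTB of complex III (-1.45), COX3 (-1.22), ATP8 (-1.21) and ATP6 of the ATP synthase (-1.04) made up the rest in HS against TN, with a median of -1.34 for the 6 genes. DESeq2 called 6 of 6 lower, with 0.889% of all genes called lower, and edgeR called 0, with 0.0549%. Without TN cow 1 the median of the 6 was -1.27 in HS against TN, with COX1 at -2.38 (SE 0.53), and DESeq2 called 5 of 6 and edgeR 0. Over all genes, DESeq2 fits with 1 cow left out called up to 534 here, higher or lower. In PF against TN the median was -0.96 with all cows and -0.85 without TN cow 1, and 6 of 6 were lower in both. In HS against PF 6 of 6 were lower as well, as were 49.1% of all genes, with a median of -0.36. There 2 of 6 did not overlap, where 4.62% of all genes were lower without overlap. DESeq2 called 1 of 6, with 0.310% of all genes called lower, and edgeR called 0, with 0.0207%. The difference between ND genes and these genes was not tested. The ND genes gave 20.2%, 21.2% and 17.4% of the 13 mitochondrial protein genes' counts in TN cows 1 to 3, with 25.7%, 23.3% and 26.7% in the PF cows and 25.4%, 25.9% and 22.5% in the HS cows. TN was thus below PF and HS in every cow. This share depends on COX1, whose mean was 84568 CPM in TN, 29145 in PF and 16635 in HS. The share without COX1 was not computed. The median log2 fold change of the ND genes was below that of the 6 genes in HS against TN (-1.58 and -1.34). In PF against TN it was above (-0.84 and -0.96).

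The summed level of the nuclear subunits of complex I did not separate the groups. Their 37 genes, all in the file and all tested, summed to 1250, 2424 and 2296 CPM in TN, 2122, 2908 and 2320 CPM in PF and 1813, 2333 and 2864 CPM in HS, and the groups overlapped. The ND genes summed to 33920, 30111 and 34421 CPM in TN, 18786, 17922 and 20721 in PF and 11563, 16017 and 9927 in HS. The lowest nuclear sum was that of TN cow 1, the cow with the low summed hepatocyte markers, whose ND sum lay between those of the other TN cows. That place of its ND sum depended on the scaling, as TN cow 1 had the highest TMM factor of all cows (1.32). As a share of all counts its ND genes were highest, at 4.49%, against 2.88% and 3.19% in TN cows 2 and 3. Without TN cow 1, the mean nuclear sum of TN was 2359 CPM (n = 2).

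The ratio of ND counts to nuclear complex I counts was 27.1, 12.4 and 15.0 in TN, 8.85, 6.16 and 8.93 in PF and 6.38, 6.87 and 3.47 in HS. TN was above both other groups in every cow, and PF and HS overlapped. The log2 difference was -1.69 for HS against TN (-1.36 without TN cow 1), -1.12 for PF against TN (-0.79 without TN cow 1) and -0.56 for HS against PF (-0.25 without HS cow 3). The difference to TN was thus smaller, but not gone, without the library that stood apart.

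**Figure D5:**
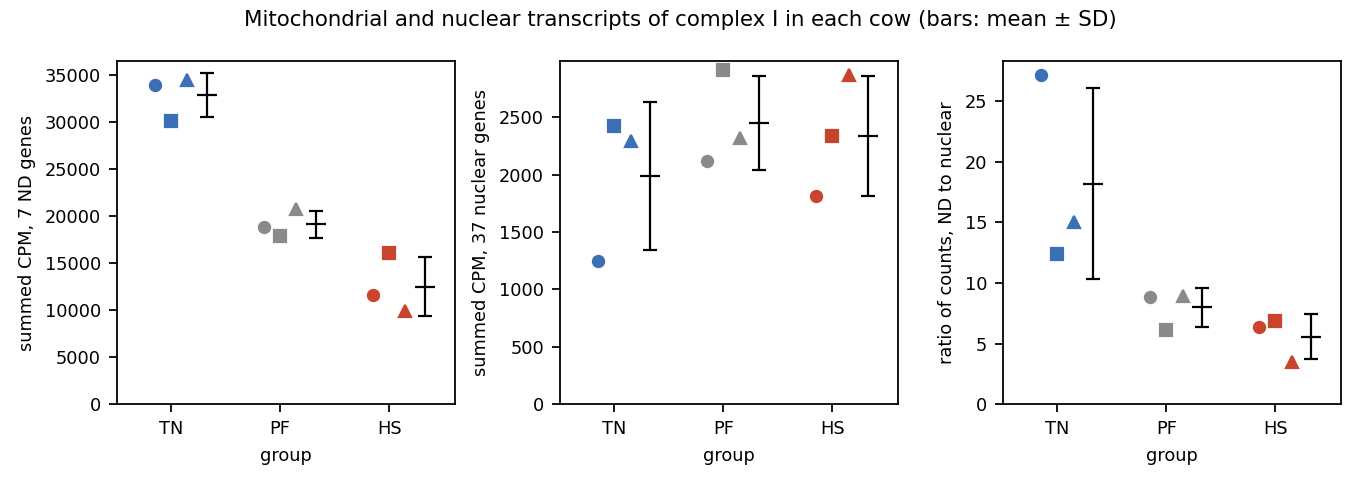
Summed TMM-normalized CPM of the 7 ND genes (left), of the 37 nuclear complex I genes (middle) and the ratio of their counts (right), on linear axes from 0, in each cow by group; circles, squares and triangles are replicates 1, 2 and 3, and bars are mean ± SD (n = 3). The ND sums separate the groups (TN 30111 to 34421, PF 17922 to 20721, HS 9927 to 16017), while the nuclear sums overlap.

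The 7 nuclear core subunits carry the redox centres, with NDUFV1 binding the flavin and NDUFS1, NDUFS7, NDUFS8 and NDUFV2 binding iron-sulfur clusters. In HS against TN, 4 had a log2 fold change above 0 and 3 below, where 49.3% of all genes tested were above 0, with a median of 0.06, and 0 of 7 had an unadjusted p under 0.05. NDUFS1 had the largest difference, 0.48 (SE 0.28, edgeR FDR 0.590), with 57.3 ± 15.0 CPM in HS and 40.9 ± 12.0 in TN (SD, n = 3). NDUFV1 was at 0.09 (SE 0.32), NDUFS7 at 0.06 (SE 0.31), NDUFS8 at -0.05 (SE 0.33), NDUFS3 at -0.07 (SE 0.27) and NDUFV2 at -0.10 (SE 0.30). In PF against TN all 7 were above 0 (median 0.27), as were 48.8% of all genes, and in HS against PF all 7 were below 0 (median -0.21), where 50.9% of all genes were above 0, with 0 of 7 called by edgeR or DESeq2 in either. These directions against TN rested in part on TN cow 1: without it, 1 of 7 was above 0 in HS against TN (median -0.19, where 51.2% of all genes were above 0) and 5 of 7 in PF against TN (median 0.04, with 50.7% of all genes above 0). In HS against TN without that cow, NDUFS1 was at 0.27 (SE 0.25, edgeR FDR 0.889), and NDUFV1 and NDUFS7 turned to -0.14 (SE 0.28) and -0.19 (SE 0.26).

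Of the 30 accessory subunits, 26 had a log2 fold change above 0 in HS against TN, with a median of 0.21 and a range of -0.07 to 0.72, where 49.3% of all genes tested were above 0. None of the 30 had an unadjusted p under 0.05 with edgeR, and DESeq2 called 0. The largest differences were those of NDUFA2 (0.72, SE 0.37), NDUFB4 (0.65, SE 0.29) and NDUFC1 (0.62, SE 0.35), with an edgeR FDR of 0.553, 0.522 and 0.577. In PF against TN 28 of 30 were above 0 with a median of 0.28, where 48.8% of all genes were, and in HS against PF 13 of 30 with a median of -0.02, where 50.9% of all genes were. Without TN cow 1, the count above 0 fell to 15 of 30 in HS against TN (median -0.0070), near the share of all genes, 51.2%. In PF against TN it fell to 19 of 30 (median 0.05), which was still above the share of all genes, 50.7%. NDUFA2, NDUFB4 and NDUFC1 were then at 0.47 (SE 0.36), 0.43 (SE 0.27) and 0.31 (SE 0.26) in HS against TN. The excess of accessory subunits above 0 was thus not seen without this cow in HS against TN.

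Among 17 assembly factors, which help to build complex I but are not part of it, 12 were above 0 in HS against TN. Their median was 0.33, where 49.3% of all genes tested were above 0. The unadjusted p of edgeR was under 0.05 for 3 of 17, all above 0, and for 1365 of the 14582 genes tested. After adjustment, edgeR and DESeq2 called 0. NDUFAF2 had 1.81 ± 1.27 CPM in HS and 0.55 ± 0.17 in TN (log2 fold change 1.68, SE 0.69, edgeR FDR 0.504). NDUFAF8 had 27.6 ± 2.72 CPM against 16.7 ± 4.39 (0.72, SE 0.24, edgeR FDR 0.456), and NDUFAF5 had a log2 fold change of 0.70 (SE 0.46, edgeR FDR 0.626). Without TN cow 1, 13 of 17 were above 0 with a median of 0.28, where 51.2% of all genes were above 0. The unadjusted p of edgeR was then under 0.05 for 1 of 17. NDUFAF2, NDUFAF8 and NDUFAF5 were at 1.62 (SE 0.79), 0.52 (SE 0.21) and 0.37 (SE 0.40), with 0 called by either tool.

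Of 24 factors for transcription, processing and stability of mitochondrial RNA, 23 were in the file and edgeR and DESeq2 called 0 in the 3 comparisons. In HS against TN, 13 were above 0 and 10 below, with a median of 0.03, where 49.3% of all genes tested were above 0. POLRMT, the mitochondrial RNA polymerase, had 11.7 ± 1.43 CPM in HS, 10.1 ± 4.10 in PF and 17.8 ± 5.93 in TN. Its log2 fold change was -0.63 (SE 0.28, edgeR FDR 0.522) in HS against TN and -0.82 (SE 0.36, edgeR FDR 0.708) in PF against TN. TFAM, which packs the mitochondrial genome and starts transcription, was at 0.31 (SE 0.20) in HS against TN. LRPPRC and SLIRP, which together stabilise mitochondrial messengers, were at 0.35 (SE 0.35) and -0.05 (SE 0.29). FASTK, of which a mitochondrial form is needed for ND6 RNA, was at -0.40 (SE 0.25, edgeR FDR 0.612), and GRSF1, a protein of the mitochondrial RNA granules, was at 0.17 (SE 0.21). Without TN cow 1, 9 of 23 were above 0 in HS against TN (median -0.05), where 51.2% of all genes were, and 0 were called by either tool. POLRMT then had a mean of 14.5 CPM in TN, with a log2 fold change of -0.31 (SE 0.24) in HS against TN and -0.52 (SE 0.36) in PF against TN. In HS against TN, FASTK moved to -0.16 (SE 0.21), LRPPRC to 0.06 (SE 0.30), SLIRP to -0.26 (SE 0.26) and GRSF1 to 0.10 (SE 0.22), while TFAM stayed at 0.35 (SE 0.22).

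Outside the mitochondrial genome, the patterns most like the mean log2 CPM of the ND genes over the 9 cows, among 13544 genes, were those of SLC35B3 (Pearson r = 0.964), C8H9orf3 (r = 0.963), LOC100196901 (r = 0.949), CD1D (r = 0.945) and CCDC159 (r = 0.945). These r only rank the genes: the cows fall into 3 groups, and the highest of so many values is high in any case. Without TN cow 1 the r of these 5 genes over 8 cows lay between 0.930 and 0.979. SLC35B3, a Golgi transporter of the sulfate donor PAPS, had 9.63 ± 0.393 CPM in TN, 8.38 ± 0.482 in PF and 6.50 ± 0.516 in HS (SD, n = 3). C8H9orf3 had 124 ± 14.2, 93.4 ± 1.70 and 74.4 ± 13.2 CPM in the same order. CD1D had 5.67 ± 1.36, 3.57 ± 0.392 and 2.73 ± 0.338 CPM.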

How the data were processed

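RNA was enriched on poly-T beads, and paired reads were made from 9 liver libraries. The deposited values are raw read counts per gene, which the authors made with fastp 0.23.2, STAR 2.7.9a (ARS-UCD1.2) and featureCounts 2.0.3; the annotation release, strand and multi-mapping settings are not given in the sources used here. All 9 columns were mapped to cows, and 0 were left out.

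The groups were compared in pairs with edgeR 4.0.16 (R 4.3.3), using TMM, filterByExpr and a quasi-likelihood F test on 6 libraries. The p-values were adjusted with the Benjamini-Hochberg method across the genes of a fit. A gene was called where its FDR was below 0.1 and its fold change above 1.5. DESeq2 1.42.0, the tool of the study, was an alternative. The quasi-likelihood SE is |log2 fold change| divided by the root of F. The tests were checked on simulated counts. CPM are from TMM factors over the 9 libraries, with an offset of 0.5 on the log2 scale. Ratio tests used scipy 1.17.1.

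In the labels, only the replicate number could link cows across groups. PF cows were matched in intake to HS cows, but which cow was matched to which is not given. The cows were therefore compared as unpaired, and p-values measure the spread between cows of a group. The genes named are the 7 members, the 7 nuclear core subunits (of which 1 is not reported by name here), the 3 accessory subunits and 3 assembly factors with the largest absolute difference in HS against TN, 6 factors of mitochondrial RNA, the 6 other mitochondrial genes, and the 5 genes most correlated with the members over the cows (mean of at least 1 CPM). The members and lists were chosen with earlier results of these data known. Alternatives were other scalings, filters and thresholds, all libraries in 1 fit, a replicate block and each cow left out; DESeq2 with each cow left out was added after seeing the data.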

Additional observations from a re-analysis of the deposited data

How the results depend on the processing

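All 7 members were lower in HS against TN and in PF against TN under each of the 20 alternatives; in HS against PF only ND2 changed sign, to 0.067 in edgeR and 0.063 in DESeq2 without HS replicate 3 (its range with a cow left out began at -0.49). edgeR called 0 members in each comparison under its alternatives, except 1 (ND6, FDR 0.0963) in HS against TN with no filter on low counts. DESeq2 called 7, 2 and 2 members in HS against TN, PF against TN and HS against PF. With a cow left out, it called 6 to 7, 0 to 5 and 1 to 2.

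Counts over all genes moved as well. In HS against TN (13 called by edgeR), DESeq2 called 270, no filter gave 124, all 9 libraries in 1 fit gave 4, and an FDR under 0.05 gave 0; leaving out a cow gave 0 to 39 in edgeR and 171 to 534 in DESeq2. In PF against TN (0 called by edgeR, with 1003 genes at an unadjusted p under 0.05), DESeq2 called 91, no filter gave 136 and a minimum of 10 counts in every library gave 1; leaving out a cow gave 0 to 14 and 58 to 341. In HS against PF (4 called), DESeq2 called 122, RLE size factors 8, library sizes without the mitochondrial genes 8 and no filter 98; leaving out a cow gave 5 to 10 and 89 to 152. The cause of these moves was not tested.

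The members' median log2 fold change ranged, with a cow left out in either tool, from -1.70 to -1.34 in HS against TN, from -0.97 (without TN replicate 2, in both tools) to -0.75 in PF against TN and from -0.81 to -0.38 in HS against PF. The HS to TN difference in log2 ND2 to ND1 stayed between 0.49 and 0.56, but its 3-group p passed 0.05 without any one HS cow; ND6 to ND5 stayed between -0.40 and -0.33; ND4L to ND4 ran from -0.19 to 0.026, the latter without TN replicate 1.

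Among the nuclear genes named, 5 changed sign without TN replicate 1: NDUFV1 (-0.14) and NDUFS7 (-0.19) in HS against TN, and NDUFS8 (-0.11), NDUFV2 (-0.11) and NDUFAF5 (-0.12) in PF against TN; this alternative was added for the gene lists and the genes of like pattern after the data were seen.

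The replicate numbers showed no clear pairing of the cows: of 9 same-numbered pairs, 3 had a correlation of deviations over 0.1 (-0.24 to 0.26), and 4 of 9 cows correlated best with their own number. With so few cows, this check cannot tell whether same-numbered PF and HS cows were matched in intake. With the replicate block, edgeR called 33, 1 and 6 genes and 0 members in the 3 comparisons, with members' medians of -1.58, -0.85 and -0.66. Counting error was at most 2.28% of a member's value, below the spread between the cows of a group.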
